A study of Mus musculus with 25 samples.

Results

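Dorsal root ganglia from 25 BXD strains were ranked by their level of skeletal muscle transcripts, and the 8 libraries with the most were set against the 8 with the least. The libraries were thus chosen by measured values of these same data. They were selected on a score, the mean of log2(scaled count + 1) over 9 genes of fast muscle fibres (Acta1, Ckm, Mylpf, Myh4, Myh1, Tnnt3, Tnni2, Tnnc2 and Atp2a1). The other 9 libraries lay between the groups. BXD strains are recombinant inbred mice derived from the parents C57BL6/J and DBA2/J, and the ganglion holds the cell bodies of sensory neurons beside the spinal cord. Each strain was represented by 1 RNA-seq library from mice aged 8 weeks, with 16 strains named TyJ and 9 named RwwJ after their origin. The high group held BXD36, BXD89, BXD40, BXD2, BXD21, BXD1, BXD16 and BXD60, of which BXD89 and BXD60 are RwwJ strains. The low group held BXD73, BXD68, BXD13, BXD15, BXD87, BXD14, BXD11 and BXD28, of which BXD73, BXD68 and BXD87 are RwwJ strains. No treatment or engineered allele was named for any strain, and the labels give neither sex nor how many mice made up a sample. The Y-linked genes Ddx3y (1183 to 1940 scaled counts) and Eif2s3y (806 to 1242) were present in all 25 libraries.

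A scaled count is a read count that the authors had divided by a factor for its library and rounded, so that the third quartile of all genes was the same in every library to within rounding. Totals ran from 24637919 to 26860283 scaled counts. The sequencing depth before scaling is unknown. BXD21, BXD36 and BXD40, all in the high group, stood apart in the genes of peptidergic nociceptors, with a mean log2 level of 12.78 to 13.18 over 6 genes against 12.21 to 12.63 in the other libraries. Since each strain has 1 library, the spread within a group is the spread between strains, with animals and dissections included in it. Fewer cells of a type and less RNA per cell cannot be told apart in whole ganglia.

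Skeletal muscle is built of fibres filled with sarcomeres, in which myosin thick filaments pull on actin thin filaments when calcium binds troponin. Fast and slow fibres use different genes for the same parts, among them the myosin heavy chains Myh4, Myh1 and Myh2 of fast fibres and Myh7 of slow fibres. Sensory neurons and their glia make little of these proteins, and muscle lies against the vertebral column from which ganglia are dissected. How muscle RNA came to be in these libraries was not measured.

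Many muscle genes are switched on through 3 short DNA elements, the CArG box read by serum response factor, the MEF2 box read by MEF2 proteins, and the E-box CAGCTG read by myogenic factors such as MyoD. RefSeq promoter sequences (assembly GRCm38.p6) were matched by symbol for 7 of the 9 score genes. In the 250 bases before the start site, both strands searched, the CArG box was found in 2 of the 7 (Acta1 and Myh4) and in 1.4% of 27025 promoters of all genes. The MEF2 box was found in 2 (Myh1 and Myh4), against 3.01% of all, and CAGCTG in 5 (Acta1, Atp2a1, Ckm, Myh4 and Mylpf), against 12.8% of all. These are matches of letters only, and nothing was measured at these sites here. The pair with a CArG box is shown because these genes encode the main actin and the main myosin heavy chain of the fibres described below, with the matches in capitals. In Acta1 (chr8:123894776-123895025, minus strand) the capitals are CAGCTG at 221 to 216 bases before the start and the CArG box at 73 to 64. In Myh4 (chr11:67237562-67237811, plus strand) they are the MEF2 box at 182 to 173, the CArG box at 104 to 95 and CAGCTG at 67 to 62.
Acta1: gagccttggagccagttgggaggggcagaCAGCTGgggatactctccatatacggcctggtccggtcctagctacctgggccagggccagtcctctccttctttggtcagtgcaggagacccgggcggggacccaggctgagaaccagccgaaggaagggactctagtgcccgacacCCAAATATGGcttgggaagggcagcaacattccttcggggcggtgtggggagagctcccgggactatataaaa
Myh4: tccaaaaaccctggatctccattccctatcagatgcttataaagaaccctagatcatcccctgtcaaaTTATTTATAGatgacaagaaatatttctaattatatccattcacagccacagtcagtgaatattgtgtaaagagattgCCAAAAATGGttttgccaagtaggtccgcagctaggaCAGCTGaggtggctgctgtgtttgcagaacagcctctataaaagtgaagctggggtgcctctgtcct

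The score values that chose the groups are given as a description, with no test. In rising order the low group scored 4.810 in BXD73, 5.001 in BXD68, 5.295 in BXD13, 5.595 in BXD15, 7.503 in BXD87, 7.550 in BXD14, 7.596 in BXD11 and 7.637 in BXD28. It thus fell into 4 libraries with little muscle RNA and 4 nearer to the middle. The high group scored 9.481 in BXD36, 9.837 in BXD89, 10.134 in BXD40, 10.211 in BXD2, 10.410 in BXD21, 11.003 in BXD1, 11.441 in BXD16 and 11.758 in BXD60. The libraries between the groups ran from 8.01 in BXD6, just outside the low group, to 9.11 in BXD48, just outside the high group. The groups averaged 10.534 ± 0.794 (SD, n = 8) and 6.373 ± 1.301 (SD, n = 8). With the median of the 9 genes, or with each gene standardised, the same 8 libraries made up each group.

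Even at the top the muscle transcripts were a small part of the ganglion RNA. The 9 genes summed to 0.00147% to 0.0112% of all scaled counts in the low group (median 0.00621%) and to 0.0336% to 0.185% in the high group (median 0.0662%). BXD60 (0.185%), BXD16 (0.13%) and BXD1 (0.113%) held the most.

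**Figure D1:**
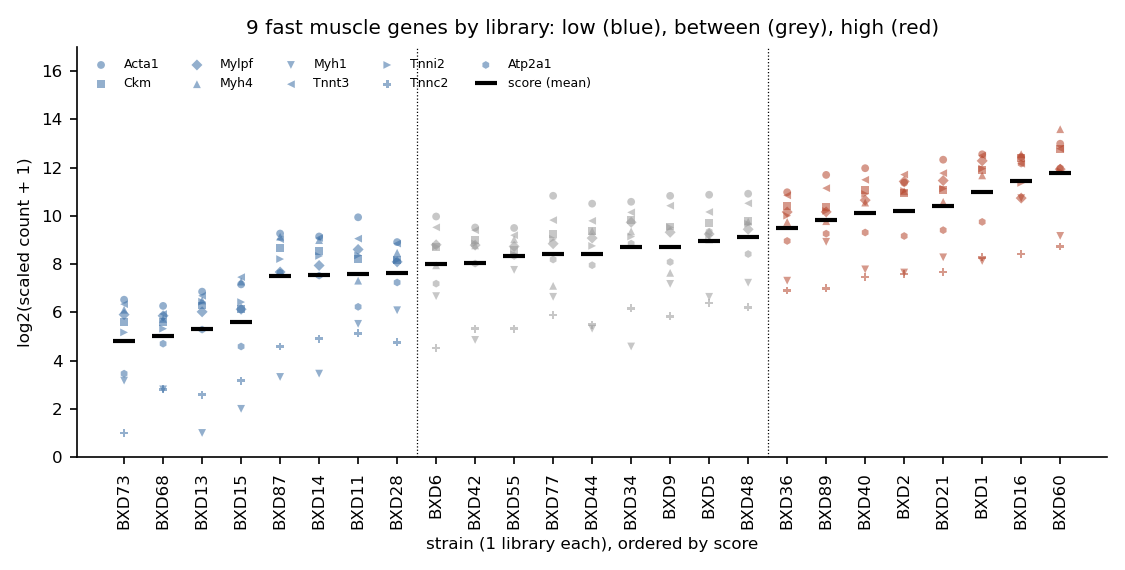
The level of the 9 score genes, as log2(scaled count + 1), in each of the 25 libraries ordered by score, with the low group in blue, the libraries between in grey and the high group in red. The 9 genes rise together from BXD73 (score 4.81) to BXD60 (11.76), and 4 low libraries lie apart from the other 4.

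The markers named for this grouping, Acta1, Ckm and Tnnt3, were detected in all 25 libraries and did not overlap between the groups. Acta1, skeletal alpha-actin of the thin filament, had 76 to 982 scaled counts in the low group (median 312) and 2017 to 8131 in the high group (median 4582). The lowest high library for Acta1, BXD36, was still above the highest low library, BXD11. Ckm, the creatine kinase that regenerates ATP in muscle, had 47 to 402 (median 180) in the low group and 1310 to 7031 (median 2140) in the high group. Tnnt3, fast troponin T, had 60 to 541 (median 318) and 1843 to 7063 (median 3422).

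The other score genes showed the same separation, which the rule fixed. Mylpf, the fast regulatory light chain, had 57 to 389 scaled counts in the low group and 1143 to 4974 in the high group. Tnni2 and Tnnc2, fast troponins I and C, had 35 to 328 and 1 to 34 in the low group, and 1028 to 3979 and 119 to 424 in the high group. Atp2a1, the calcium pump of fast fibres, had 10 to 200 (median 56) in the low group and 497 to 4596 (median 656) in the high group. BXD60 and BXD16 supplied the top values of several genes, with 12348 for Myh4 in BXD60 (high median 1802) and 1703 for Myh1 in BXD16 (high median 294). On the log2 scale the difference between group means ran from 3.75 for Myh4 to 5.08 for Myh1, with 4.03 (16.4-fold) for Acta1.

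The other muscle genes were divided by role into 8 lists, and values were present for 77 of their 92 genes. All 77 had a mean of at least 10 scaled counts, the minimum for a gene to be tested. Of the 77, 4 (Cacng1, Csrp3, Lmod2 and Lmod3) reached it only through the high group. The median log2 difference of the 77, high minus low, was 1.59, against 0.01 over all 16143 genes tested. Of the 77, 71 lay above 0, as did 51.9% of all genes. A difference of at least 1 was found in 49 of the 77 and in 1.07% of all genes. In 30 of the 77 every high library exceeded every low library, which happened in 0.335% of all genes tested. These genes belong to the tissue that the score measures in the same libraries, so their values are a description without p-values, and nothing is read from the counts.

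Thick and thin filament genes had the largest median of the 8 lists, a difference of 3.06 over 12 genes (range 1.42 to 4.36). Mybpc1, a myosin-binding protein that sets cross-bridge cycling, had the largest log2 difference of the 12, 4.36. It had 0 to 31 scaled counts (median 11) in the low group and 41 to 415 (median 97) in the high group. Since 3 libraries had 0 for Mybpc1, this difference depends on the 1 added to each count. Myl1, the fast essential light chain, had 28 to 274 (median 114) and 896 to 3218 (median 1786). Actn3, the alpha-actinin of fast fibres, had 43 to 185 (median 85) and 275 to 2171 (median 521). Actn2, its relative in all striated fibres, was the least separated, with 27 to 72 (median 48.5) against 44 to 388 (median 126). Tpm2, beta-tropomyosin, had 282 to 819 in the low group and 743 to 1940 in the high group, a difference of 1.45. Ttn, the giant spring titin, reached 2979 in BXD16 and had a median of 411 in the high group and 37.5 in the low group.

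Genes of the Z-disc, M-band and costamere, which anchor the filaments, had a median difference of 1.77 over 13 genes. Tcap, the cap of titin, had 9 to 73 scaled counts in the low group (median 29) and 197 to 1220 in the high group (median 426). Myot, myotilin of the Z-disc, had 1 to 22 (median 10.5) and 56 to 378 (median 118). At the other end, Klhl40, a stabiliser of thin filaments, differed by 0.49, with 25 to 36 and 28 to 72. Ldb3, a Z-disc scaffold, had 262 to 535 in the low group and 417 to 897 in the high group, and its groups overlapped.

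Excitation-contraction coupling genes, which turn the action potential into calcium release, had a median difference of 1.30 over 16 genes. The groups did not overlap in 8 of the 16, all higher in the high group, against 0.335% of all genes tested. These genes belong to the tissue of the score, so nothing is read from the count. Trdn, triadin of the calcium release unit, had 6 to 45 scaled counts in the low group (median 17.5) and 73 to 527 in the high group (median 178). Ryr1, the release channel itself, had 70 to 107 (median 84.5) and 113 to 989 (median 202). Casq1, the calcium store protein of fast fibres, had 53 to 168 (median 90) and 232 to 907 (median 414). Scn4a, the muscle sodium channel, lay the other way by 0.16 on the log2 scale, with medians of 219 in the low group and 160 in the high group and overlapping ranges. Pvalb, parvalbumin, buffers calcium in fast fibres and also marks proprioceptive neurons. It had 2159 to 3400 scaled counts (median 3019) in the low group and 2994 to 6291 (median 5344) in the high group, and 7 of the 8 high libraries exceeded every low library. This difference of 0.73 stood on a level that was high in the low group too.

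Energy supply genes had a median difference of 1.11 over 15 genes and ranged from -0.00 to 4.22. Mb, the oxygen store myoglobin, had 5 to 187 scaled counts (median 44) in the low group and 136 to 1626 (median 802) in the high group, where BXD36 was lowest. Ckmt2, mitochondrial creatine kinase of muscle, had 4 to 38 (median 13.5) and 41 to 549 (median 219). Eno3, muscle enolase, had 121 to 411 (median 276) and 574 to 2204 (median 936). Genes of this list with high levels in every library differed little. Pfkm, phosphofructokinase, had medians of 7452 and 8285 scaled counts, and Phka1, a phosphorylase kinase subunit, had medians of 988 and 866. Fabp3, a fatty acid carrier, had medians of 1226 and 1628.

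Slow-fibre and cardiac isoforms were also higher in the high group, with a median difference of 2.14 over the 9 genes tested of 11. Myl2, the slow regulatory light chain, had 4 to 36 scaled counts (median 13.5) in the low group and 40 to 240 (median 102) in the high group. Csrp3, a stretch-sensing LIM protein, had 0 to 9 and 13 to 104, and Tnni1, slow troponin I, had 25 to 58 and 52 to 175. Myh7, the slow heavy chain, had 0 to 27 in the low group and 2 to 715 in the high group, lowest in BXD60 and highest in BXD16. Actc1, cardiac actin, had 5 to 35 and 16 to 671, lowest in BXD16 and highest in BXD1, so the libraries did not keep 1 order across these genes.

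The ratios among transcripts of fast and slow fibres therefore varied between libraries of the high group. Fibres themselves were not measured, and Myh4 and Myh1 are score genes. Levels were divided by exon length to compare genes, and shares were taken of the summed Myh4, Myh1, Myh2 and Myh7 level. Myh4 made up 59.7% in BXD89 to 88.9% in BXD60 (median 81.5%). Myh1 ran from 3.92% in BXD60 to 31.2% in BXD89 (median 12.8%), and Myh2 from 2.94% in BXD36 to 9.38% in BXD21 (median 4.63%). Myh7 made up 0.01% in BXD60 to 5.91% in BXD16 (median 0.948%). The order by slow myosin was thus not the order by score, since BXD60 and BXD16 have the highest scores.

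The troponins gave another reading of the slow share in the same unit. Tnni1 made up 0.627% of Tnni1 and Tnni2 in BXD60 and 2.69% in BXD16 (median 1.68%). Tnnt1 made up 0.435% of Tnnt1 and Tnnt3 in BXD60 and 8.14% in BXD40 (median 2.01%), with 5.31% in BXD36 and 4.13% in BXD16. BXD60 was the lowest of the 8 by the shares of all 3 slow genes. In the low group the same troponin shares were higher, 3.66% to 32.9% for Tnni1 (median 8.88%) and 3.75% to 20.1% for Tnnt1 (median 7.12%). No slow troponin exceeded 58 scaled counts there. Tnni2 and Tnnt3 are score genes, so the rule itself raised these shares in the low group and lowered them in libraries of high score. No difference in fibres is read from them. Myh1, Myh2 and Myh4 lie together on chromosome 11 and are near-identical in long stretches, as Myh7 on chromosome 14 is in part, so reads can be split between them and these shares are uncertain.

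**Figure D2:**
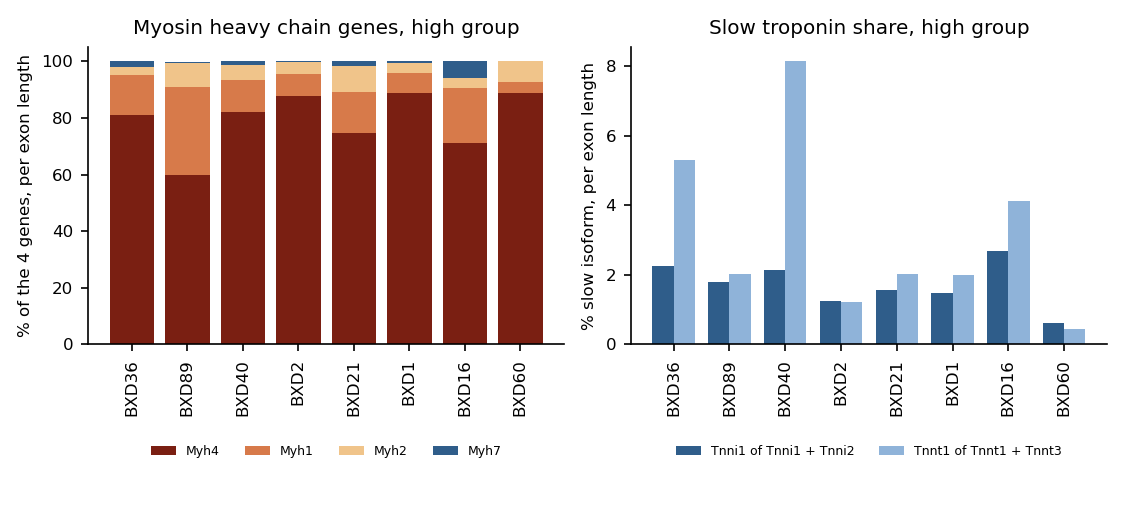
Left, the share (%) of Myh4, Myh1, Myh2 and Myh7 in the sum of the 4 heavy chain levels per exon length in each of the 8 high libraries, ordered by score. Right, the slow share (%) of troponin I and troponin T in the same libraries, where BXD60 is lowest (0.627% and 0.435%) and BXD40 has the highest Tnnt1 share (8.14%).

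Muscle lists that concern the junction with the nerve and the making or breakdown of fibres had smaller median differences and few genes. Neuromuscular junction genes had a median difference of -0.02 over the 7 tested of 10, range -0.31 to 0.27. The groups overlapped in all 7, as in nearly all genes tested, of which 0.335% lay entirely higher and 0.0124% entirely lower in the high group. Chrnb1, the beta subunit of the muscle acetylcholine receptor, had 70 to 125 scaled counts (median 86.5) in the low group and 35 to 112 (median 84.5) in the high group. Musk, the kinase that clusters the receptor, had medians of 52 and 57.5, and its partner Lrp4 had medians of 480 and 438. Of 6 myogenic regulators and satellite cell genes, Cdh15, a cadherin of satellite cells, was the single one tested, with 215 to 344 in the low group and 212 to 371 in the high group. Pax7, Myf5, Myod1, Myog and Myf6 had no values here, so the making of fibres was hardly covered. All 4 tested genes of muscle breakdown lay above 0 (median 0.31), with overlapping groups. Trim63, the ubiquitin ligase MuRF1, differed by 1.41 with a top value of 107 in BXD16. Fbxo32, the ligase atrogin-1, had medians of 214 and 200.

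**Figure D3:**
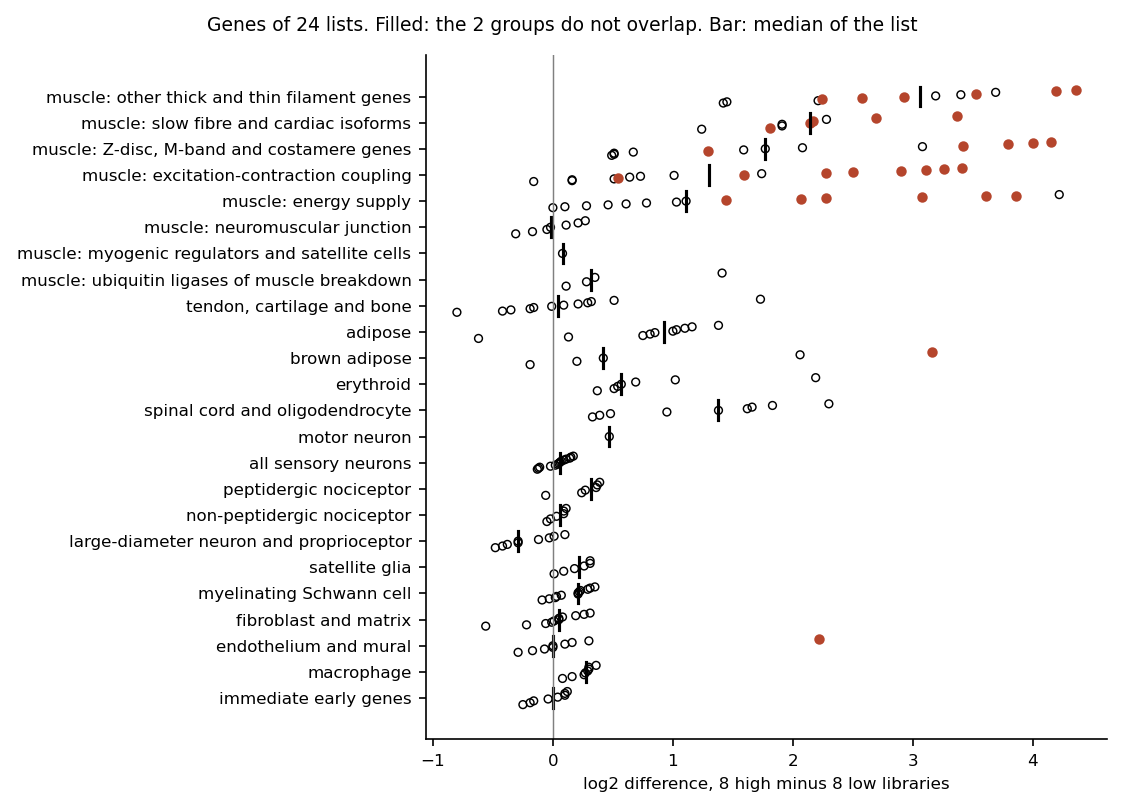
The log2 difference, high minus low, of each gene of 24 lists, where filled points are genes whose groups do not overlap and bars are list medians. Sarcomere, coupling and energy lists lie to the right (medians 1.11 to 3.06), the junction list lies around 0 (median -0.02), and Cox8b and Des stand apart in their lists.

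Genes outside the score were then tested by limma on log2(scaled count + 1) over all 16143 genes, with Benjamini-Hochberg adjustment at 0.05. A gene that passed is called. There were 69 called genes, 0.427% of those tested, with 68 higher in the high group (0.421%) and 1 lower (0.00619%). Of the 68, 15 reached the minimum mean of 10 only through the high group, so they had to differ, and no weight is put on their calls. Of the 69, 37 were in the muscle lists, 2 in lists of other tissues and 30 in no list. The 37 belong to the tissue that chose the groups, so neither their calls nor the total of 69 is read as a result. Called genes had a median difference of 2.69 and were low in level, with a median mean of 56.8 scaled counts against 530.0 over all genes tested and 45 of the 69 below 100. Among the 5439 genes with a mean log2 value of at least 10, limma called 0, with 825 at an unadjusted p under 0.05. Where the minimum was a mean of 50 scaled counts, 32 genes were called.

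**Figure D4:**
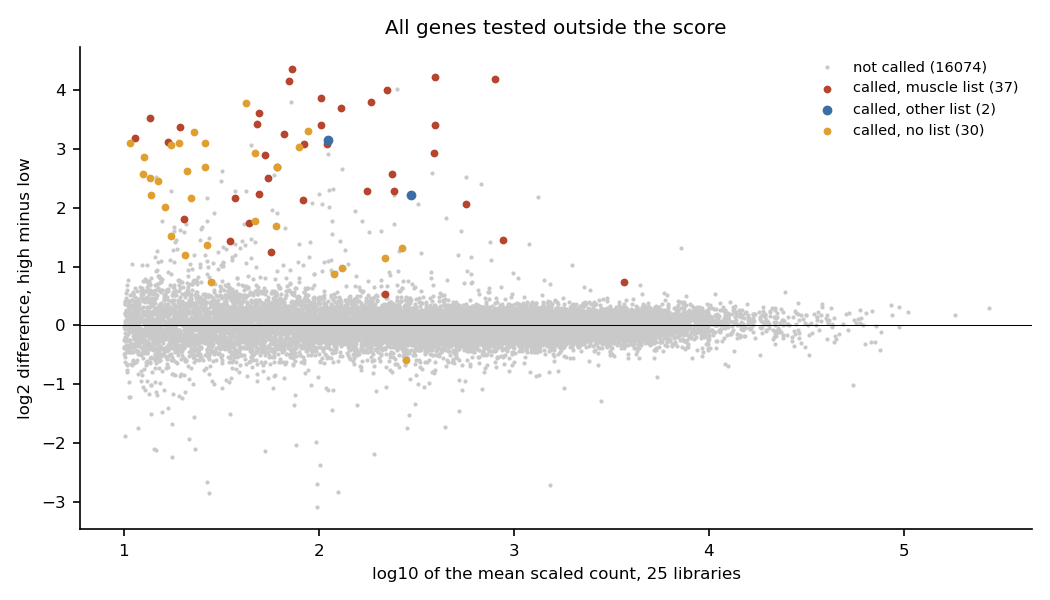
The log2 difference, high minus low, of the 16143 genes tested against the log10 of their mean scaled count, with the 69 called genes coloured by list. All but 1 of the called genes lie above 0, and most lie toward the left, at low counts.

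Of the 133 genes tested in 16 lists of other tissues and cell types, 2 were called, Cox8b and Des. Over all 16143 genes tested, 0.427% were called. Cox8b, a cytochrome c oxidase subunit of brown fat, heart and skeletal muscle, had 7 to 100 scaled counts (median 19.5) in the low group and 109 to 320 (median 229) in the high group. It rose by 3.16 ± 0.38 (log2, SE; limma adjusted p = 0.000429), with no overlap. Des, desmin, the intermediate filament of muscle fibres and of mural cells, had 60 to 164 (median 110) and 262 to 1232 (median 450, highest in BXD16). It rose by 2.22 ± 0.29 (limma adjusted p = 0.000627), also with no overlap. Both are genes of skeletal muscle too, so their calls are not independent of the score and no weight is put on them. No other gene of their lists was called. Ucp1, the uncoupling protein that defines brown fat, had 3 to 113 in the low group and 2 to 554 in the high group, a difference of 2.06 ± 0.93 (limma adjusted p = 0.421). Ucp1 was highest in BXD89 and lowest in BXD1, and the part of brown fat in the Cox8b difference was not tested. The mural gene Rgs5 differed by 0.10.

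White adipose genes lay higher in the high group in 9 of 10 cases (median 0.92), and none was called. Car3, carbonic anhydrase 3, abundant in fat and in slow muscle, came nearest, with 290 to 1780 scaled counts (median 589) in the low group and 998 to 2761 (median 1388) in the high group (1.38 ± 0.32, limma adjusted p = 0.0834). The low library with 1780 was BXD11, and without BXD11 Car3 was called (limma adjusted p = 0.00531), as it was by a slope over all 25 libraries (limma adjusted p = 0.0217). Fabp4, a fatty acid carrier of adipocytes, differed by 1.16 ± 0.36 (limma adjusted p = 0.352), while Lep, leptin, lay the other way by 0.62 ± 0.58 (limma adjusted p = 0.596).

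Erythroid and spinal cord genes likewise lay above 0 in every tested case (7 genes, median 0.57, and 9 genes, median 1.38), with none called. Hba-a2, an alpha-globin, had 92 to 1603 scaled counts (median 174) in the low group and 356 to 7437 (median 886) in the high group, and BXD1 was highest (2.19 ± 0.71, limma adjusted p = 0.373). By a slope over all 25 libraries Hba-a2 was called (limma adjusted p = 0.0441). Mobp, a protein of oligodendrocyte myelin, had 15 to 854 (median 44) and 18 to 943 (median 274), highest in BXD11 and in BXD89 (1.83 ± 0.83, limma adjusted p = 0.421). The mean log2 level of the 9 spinal cord genes was raised in 1 low library, BXD11 (7.17 against 3.32 to 4.04 in the other 7). In the high group it was 7.72 in BXD89, 6.77 in BXD36, 6.30 in BXD21 and 5.33 in BXD40, and 3.56 to 4.56 in the other 4. The part of adipose, erythroid and spinal cord RNA in the muscle difference was not tested. With the spinal cord score as a covariate 71 genes were called, all higher and 61 of them among the 69, and genes with an unadjusted p under 0.05 numbered 653 in place of 1902. Tendon, cartilage and bone genes had a median difference of 0.04 over 12 genes, from -0.8 for Fmod, fibromodulin, to 1.73 for Bglap, osteocalcin.

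Sensory neuron genes differed little between the groups. The 14 general neuronal genes lay between -0.13 and 0.17 (median 0.05), with none called. Tubb3, neuronal beta-tubulin, differed by -0.02 ± 0.08 (limma adjusted p = 0.9) and Prph, peripherin of small neurons, by 0.04 ± 0.1 (limma adjusted p = 0.858). Non-peptidergic nociceptor genes had a median of 0.06 over 6 genes.

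Large-diameter and proprioceptor genes had a median of -0.29 over 9 genes, which is opposite in sign to Pvalb, and none was called. Ntrk3, the neurotrophin-3 receptor of proprioceptors, differed by -0.48 ± 0.21 (limma adjusted p = 0.421) and Nefh, the heavy neurofilament, by -0.29 ± 0.14 (limma adjusted p = 0.427). Nefl, the light neurofilament, differed by -0.12 ± 0.09 (limma adjusted p = 0.532), Etv1, a proprioceptor transcription factor, by -0.03 ± 0.08 (limma adjusted p = 0.831), and Ldhb, a lactate dehydrogenase subunit, by 0.1 ± 0.07 (limma adjusted p = 0.496). BXD21, BXD36 and BXD40 had the lowest values of the high group for Ntrk3, 205, 180 and 189 scaled counts against 379 to 473 in its other 5 libraries, and the Ntrk3 difference without them was -0.05. For Nefh they had 50380, 51620 and 46069 against 59149 to 90749. Peptidergic nociceptor genes had a median of 0.32 over 6 genes, with none called. Calca, the precursor of CGRP, had 27092 to 40418 scaled counts (median 35285) in the low group and 28510 to 73014 (median 38318) in the high group, where BXD21 was highest. Without BXD21, BXD36 and BXD40 the Calca difference went from 0.37 to -0.00, and 67 genes were called, 57 of them among the 69.

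Glia, connective tissue and immune lists had medians of 0.22 for satellite glia, 0.21 for myelinating Schwann cells, 0.05 for fibroblasts and matrix, 0.0 for endothelium and mural cells, 0.28 for macrophages and -0.0 for immediate early genes. Apart from Des, none of their genes was called. C1qa, a complement gene of macrophages, differed by 0.36 ± 0.25 (limma adjusted p = 0.505).

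**Figure D5:**
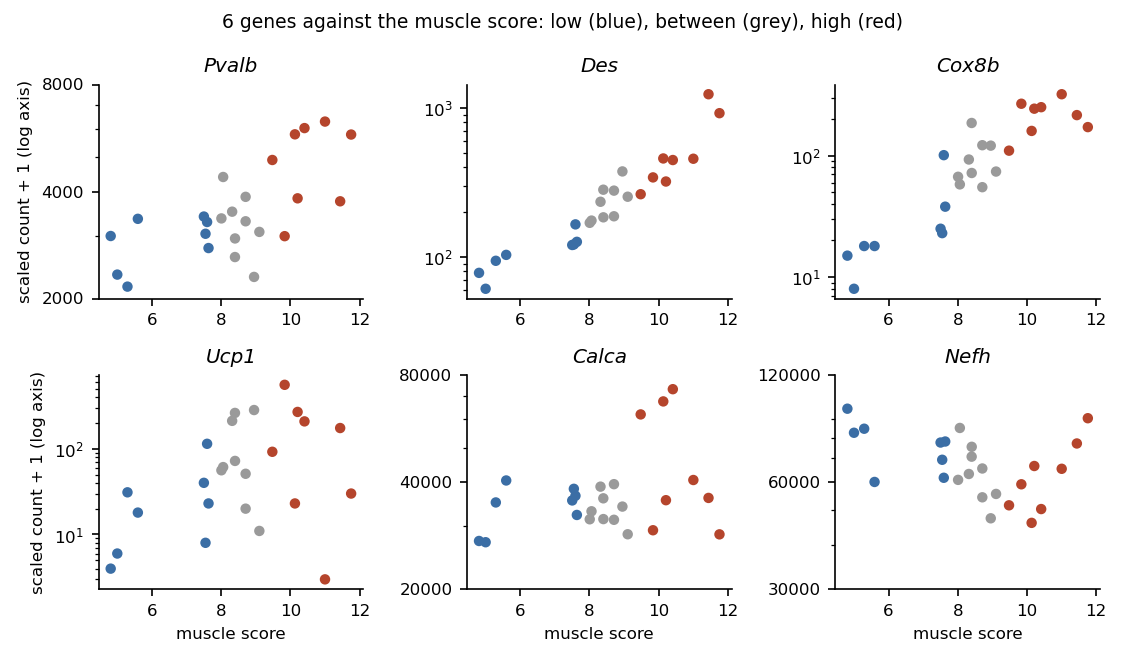
The scaled count + 1 (log axis) of Pvalb, Des, Cox8b, Ucp1, Calca and Nefh against the muscle score in the 25 libraries, with the low group in blue, the libraries between in grey and the high group in red. Des and Cox8b rise with the score, Pvalb is high in all libraries, Ucp1 scatters, and the 3 high points of the Calca plot lie within the high group.

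Of the 30 called genes in no list, 29 were higher in the high group, and several of them are known muscle genes, so their calls are not independent of the score. Hfe2, hemojuvelin, which muscle and liver use in iron control, had 1 to 15 scaled counts (median 6) in the low group and 41 to 156 (median 93.5) in the high group, and rose by 3.78 ± 0.44 (limma adjusted p = 0.000366). Apobec2, a deaminase family member of striated muscle, had 8 to 44 (median 18.5) and 72 to 287 (median 172), and rose by 3.04 ± 0.37 (limma adjusted p = 0.00046). Nmrk2, a muscle kinase of NAD synthesis, had 1 to 6 (median 5) and 21 to 127 (median 32). Adssl1, the muscle adenylosuccinate synthase, had 95 to 171 (median 127) and 194 to 407 (median 278), and rose by 1.15 ± 0.16 (limma adjusted p = 0.00108). Asb5, a ubiquitin ligase adaptor, rose by 2.16 ± 0.3 (limma adjusted p = 0.00108) and Sypl2, mitsugumin 29 of the triad junction, by 2.69 ± 0.39 (limma adjusted p = 0.00164). The other genes of the 10 with the smallest p were Mettl21c, Fitm1, Asb11 and Dhrs7c. These 4 and Nmrk2 reached the minimum mean only through the high group and are given as values, with 3.62 scaled counts on average in the low group and 27.5 in the high group for Mettl21c, and 3.5 and 28.1 for Asb11.

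Hunk, a kinase gene on chromosome 16, was also called (1.32 ± 0.25, limma adjusted p = 0.0184), and its values had another form. It was singled out after its values were seen. Over the 25 libraries Hunk fell into 12 libraries with 95 to 159 scaled counts and 13 with 294 to 509, with none between. The upper set held 7 of the 8 high libraries and 1 of the 8 low ones.

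Pstpip1, a cytoskeletal adaptor of blood cells on chromosome 9, was the single gene called lower in the high group. It had 275 to 396 scaled counts (median 354) in the low group and 146 to 254 (median 228) in the high group, with no overlap, and fell by 0.59 ± 0.12 on the log2 scale (limma adjusted p = 0.0277). The call was lost when BXD13, BXD14, BXD15, BXD16, BXD28, BXD73 or BXD89 was left out, without BXD21, BXD36 and BXD40 (limma adjusted p = 0.068), with the spinal cord score as a covariate (limma adjusted p = 0.164) and by a slope over 25 libraries (limma adjusted p = 0.323). The groups also did not overlap in Htr3a, the serotonin 3A receptor subunit, which made 2 such genes lower in the high group, 0.0124% of those tested. Htr3a had 2475 to 4241 (median 3035) in the low group and 1201 to 2460 (median 2221) in the high group, a difference of -0.68 ± 0.15 (limma adjusted p = 0.0695).

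Htr3b, the partner subunit and the neighbour of Htr3a on chromosome 9, had 113 to 649 scaled counts (median 516) in the low group and 54 to 387 (median 100) in the high group, where BXD1 was highest (-1.74 ± 0.41, limma adjusted p = 0.104). Like Hunk, Htr3b split the 25 libraries, with 13 at 54 to 149 and 12 at 300 to 649. The lower set held 7 of the 8 high libraries and 2 of the 8 low ones. Htr3b was called when BXD1 was left out (limma adjusted p = 0.017), and likewise without BXD14 (0.0294) or BXD87 (0.0202). The remaining genes of the 10 lower ones with the smallest p, among them the deacetylase Hdac4 (-0.51 ± 0.12, limma adjusted p = 0.0834) and the myosin motor Myo5b (-0.83 ± 0.20, limma adjusted p = 0.137), were not called.

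The 9 libraries between the groups were not used in the group comparison and gave another look at the called genes. Their scores ran from 8.01 to 9.11, a narrower span than that between the groups. For each gene the slope of log2(scaled count + 1) on the score was fitted by limma in these libraries. No gene was called (0%), and 911 had an unadjusted p under 0.05. Of the 68 genes called higher, 54 had a slope above 0, as had 47.8% of all genes, and the median slope of the 68 was 0.48. Slopes above 0 with an unadjusted p under 0.05 numbered 10 of the 68, against 2.3% of all genes, and 2 slopes below 0 had such a p, those of Tnnt1 and Hunk, as had 540 of all 16143 genes. Among the 10 were Myoz1, a calsarcin of the Z-disc (0.96 per unit of score), and Des (0.69), neither of them called in these libraries. The 5 genes of smallest p in these libraries, Myg1, Kifc3, Nod1, Slc8a2 and Amhr2, were in no muscle list (limma adjusted p = 0.726 for each). Muscle genes are not independent of each other or of the score, in these libraries as in the others.

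Strain origin was compared between the groups. The high group held 2 RwwJ strains and the low group 3 (Fisher's exact test, two-sided, p = 1.0). No gene was called for the interaction of muscle group and origin (0%, limma), with 410 genes at an unadjusted p under 0.05. With origin as a covariate 65 genes were called, all of them among the 69.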

How the data were processed

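The deposited table holds 1 column per strain and 16220 genes, of which 15697 carry a symbol. The authors' values are treated as a score, a rounded read count after scaling that gave every library the same upper quartile, judging from the deposited values themselves. The submitters' processing notes name CASAVA 1.8.0, TopHat2 2.0.9, HTSeq and the builds NCBIM37 and mm9, with no settings. Per the labels' protocols, Trizol was used for extraction and Illumina TruSeq RNA v2, which keeps no strand, for library preparation, so overlapping antisense genes cannot be told apart. Exon lengths and chromosomes came from the GENCODE M21 annotation by symbol.

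The 9 score genes were left out of the tests. Genes with a mean of at least 10 scaled counts over 25 libraries were tested (16143), and 68 genes fell below. Limma 3.58.1 with a trended prior (R 4.3.3, Python 3.11.15) was fitted to log2(scaled count + 1), which understates the change of low genes. A count model was not used because the scaling had removed depth, and depth per library is unknown. The procedure was tested on simulated data with known changes. Named genes are the score genes; in each list the members with the largest and smallest difference and the 2 with the highest mean; outside the lists the 10 higher and 10 lower genes of smallest p; and the 5 of smallest p between the groups. Some further genes are named as examples, and a few that the rule names are not reported here. Members and gene lists were chosen with earlier results of these data known. Alternatives changed the pseudocount (8), the minimum (50, or none), the scaling, the test, covariates and the libraries.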

Additional observations from a re-analysis of the deposited data

Results flagged for a closer look

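In 12 of 224 groups of 8 values (112 named genes in 2 groups), the highest or lowest library lay apart from the others by Dixon's test. Chance gives about 1 in 20 such groups. In the high group, Mb was 136 scaled counts in BXD36 against 635 to 1626 in the others, Thbs4 was 1952 in BXD1 against 577 to 857, Pstpip1 was 146 in BXD21 against 201 to 254, and Htr3b was 387 in BXD1 against 54 to 113. In the low group, BXD14 had 1592 for Slc4a1 (169 to 487 in the others) and 13981 for Hbb-bs (5076 to 7989), both genes of red cells. BXD11 had 188 for Mog (1 to 4) and 854 for Mobp (15 to 68), both of oligodendrocytes, and 25227 for Snap25 (33773 to 43793), a neuronal vesicle gene. BXD15 had 78170 for Tubb3 (93917 to 109907), 281 for Cd68 (123 to 182), a macrophage gene, and 430 for Ier2 (146 to 230), an immediate early gene.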

How the results depend on the processing

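No paired analysis was possible because the high and low groups hold different strains with 1 library each, and the replicate numbers of TyJ and RwwJ strains only count samples in order. The count of called genes (69) became 32 (31 higher and 1 lower) with a mean of at least 50 scaled counts. It was 0 of 5439 tested with a mean log2 value of at least 10. Of the 69, 45 had a mean under 100 scaled counts, below that minimum, so they were left out there. Why the others were not called was not tested. The count was 69 with pseudocount 8, 74 with no minimum, 67 with equal totals, 70 with median ratio scaling and 81 with array weights. It was 65 with origin as a covariate, 71 with the spinal cord score and 90 with a slope over 25 libraries. The exact rank-sum permutation test gave 56. By the rank-sum test 54 were higher and 2 lower, the same numbers as the genes whose groups did not overlap. The smallest p of that test (0.000155, adjusted 0.0448) is reached only where the groups do not overlap, so it restated that separation. Leaving out each library gave 58 to 80 called, 58 to 75 higher and 0 to 8 lower. The 69 include 37 genes of the muscle lists, so a stable count says little beyond the score. The single gene called lower became 6 with array weights, 2 with equal totals, median ratio scaling, no minimum, pseudocount 8 or the rank-sum test, and 0 with the spinal cord score, with a mean log2 value of at least 10, or without BXD21, BXD36 and BXD40, a choice made after seeing the data. It was 0 without BXD13 or BXD73, 3 without BXD87, 5 without BXD11 and 8 without BXD16. Among the named genes, besides Htr3b, those called lower when a library was left out were A730017L22Rik (without BXD15 or BXD89), Hdac4 (BXD2), Htr3a (BXD87), Myo5b (BXD11), Nol9 and Prag1 (BXD16) and Scaf1 (BXD11 or BXD16). Further lower calls in these fits were of genes not named here. The cause was not tested. All alternatives for the libraries between the groups and for the interaction gave 0 calls.

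Some named genes, none of them called, changed sign, and their differences in the main fit ranged from -0.8 for Fmod and -0.56 for Fn1 to 0.37 for Calca. Without BXD21, BXD36 and BXD40 this held for Calca (-0.00), Cdh5 (0.05), Dio2 (0.60), Fabp7 (-0.09), Fmod (0.11), Fn1 (0.27), Mrgprd (0.04), Prph (-0.09), Prx (0.13), Rgs5 (-0.10), Scn11a (-0.04) and Slc1a3 (-0.01). With the spinal cord score it held for Aqp4 (-0.05), Cd68 (-0.05), Dio2 (0.07), Ier2 (-0.01), Mrgprd (0.06), Prx (0.08), Scn11a (-0.15), Slc1a3 (-0.16) and Tubb3 (0.00). With the slope over 25 libraries it held for Cd68 (-0.00), Dio2 (0.00), Ier2 (-0.01), Prph (-0.00), Prx (0.01), Rgs5 (-0.01), Scn11a (-0.01) and Slc1a3 (-0.00). Equal totals gave -0.00 for Scn11a and -0.02 for Slc1a3. Array weights gave 0.05 for Dio2 and -0.05 for Prph. The origin covariate gave 0.02 for Ret, and mean rank differences were -0.50 for Scn11a and -0.25 for Slc1a3. Leaving out a library gave -0.01 to 0.23 for Cd68, -0.54 to 0.15 for Dio2, -0.15 to 0.06 for Mrgprd and -0.01 to 0.08 for Prph. It gave -0.19 to 0.01 for Prx, -0.09 to 0.05 for Ret and -0.07 to 0.08 for Scn11a. For Slc1a3 it gave -0.05 to 0.08 and for Tubb3 -0.07 to 0.0. In the muscle lists it gave -0.1 to 0.03 for Dok7, -0.12 to 0.03 for Lrp4, -0.08 to 0.04 for Phka1 and -0.02 to 0.15 for Fbxo32. Sign changes of muscle list genes in the other settings are not reported here. The cause was not tested.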
